A study of Homo sapiens with 8 samples.

Results

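The genes examined are 41 members of glucose metabolism and the response to low oxygen, chosen by symbol and found in the table of 60230 genes: 18 glycolytic enzymes, 4 PFKFB enzymes that set the level of fructose 2,6-bisphosphate, 5 glucose or lactate carriers, 9 targets of the hypoxia-inducible factors (HIF) outside glycolysis, the 2 HIF factors and 3 gluconeogenic enzymes. They were measured by RNA sequencing in HepG2 cells, a human liver cancer cell line, that overexpress the drug-metabolizing enzyme CYP2C19 and were kept under blasticidin selection. The cells received compound 4, 5 or 6 (labelled metylcresol, tetrabut and cyclohexil), each at its own growth-inhibiting IC50, or the solvent DMSO at 0.2%, and were harvested after 24 h. There were 2 libraries in each of the 4 groups, labelled day 1 and day 2 and called replicates 1 and 2 here, and the doses of the compounds were not equal. Compounds 4 and 6 are bisphenols with a methylene bridge that carry tert-butyl or cyclohexyl groups, respectively, next to the hydroxyl. Compound 5 carries tert-butyl groups there too, but has an ethylidene bridge and further tert-butyl groups in place of the methyl groups. All cells, the controls included, carry the CYP2C19 transgene in a tumour line, so no untransfected cells and no primary hepatocytes stand beside them.

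Glycolysis splits glucose into pyruvate, and lactate dehydrogenase turns pyruvate into lactate, which leaves the cell through monocarboxylate carriers. Several steps have isozymes: liver tissue favours PFKL, PKLR and SLC2A2, while hepatoma cells largely rely on HK2, PKM, ALDOA and SLC2A1. HIF1A and EPAS1 encode the oxygen-regulated subunits of HIF, which the prolyl hydroxylases EGLN1 and EGLN3 mark for degradation in oxygen, and many glycolytic genes and carriers are known HIF targets. The HIF subunits are controlled mainly at the level of protein, which was not measured.

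The total count per library was between 9791659 and 17814595, and the members took 1.66% to 2.13% of it. Levels are given as CPM, the read count of a gene scaled to a common library total with TMM factors, and 39 of the 41 members passed the filter on low counts and were tested among 13400 genes. The 9 hepatocyte markers were all detected, with a summed level of 45936 to 49314 CPM under DMSO and 32484 to 40795 CPM under the compounds, so this sum, made up mostly of ALB, AFP and APOB, was lower in every treated library. Other hepatocyte markers were above both controls in some groups, with APOA2 at 1905 and 1549 CPM under compound 4 (1459 and 1400 under DMSO), FGB at 254 and 285 under compound 5 (172 and 200.3 under DMSO), and HNF4A at 318 to 327 under compounds 4 and 6 (314 and 298 under DMSO). In other groups they went the other way, with FGB at 130 to 153 under compounds 4 and 6 and HNF4A at 254 and 294 under compound 5. APOA1 was below both controls in every treated library (1502 to 2538 CPM, 3556 and 3278 under DMSO). SERPINA1 was below them under compounds 5 and 6. Of the markers of other cells, PTPRC (leukocyte), KDR (endothelial) and COL1A2, DCN and LUM (fibroblast) were at 0 in every library, and all 3 endothelial and all 4 fibroblast markers were below 1 CPM. The macrophage marker CD68 was at 24.7 and 20.1 CPM under DMSO, 39.3 and 38.6 under compound 4, and 20.0 to 30.7 under compounds 5 and 6. The summed leukocyte list was 20.5 to 25.4 CPM under DMSO, 40.1 to 40.7 under compound 4, 20.7 to 26.8 under compound 5 and 30.5 to 32.1 under compound 6. In the cholangiocyte list, KRT7 was at or near 0, SOX9 at 110 to 172 CPM, and KRT19 at 130 and 112 CPM under DMSO and 148 to 215 in the treated libraries, all of them higher. The part of these markers in the results below was not tested. CYP2C19 itself was at 16.4 to 27.7 CPM under DMSO, 31.4 to 52.8 under compounds 4 and 5 and 21.2 to 23.9 under compound 6. In RNA from whole cultures, fewer cells with a transcript and less of it per cell cannot be told apart.

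An adjusted p of 0.05 was passed in at least 1 comparison by 9 members: SLC2A1, ENO2, HK1, PFKP, HIF1A, PFKL, ALDOC, PKLR and PFKFB4. For 5 of them RefSeq (build GRCh38.p14) gives a single transcription start, and the 250 bases before it are printed 5′ to 3′ so that the upstream DNA of members that rose and of members that fell can be read side by side. Capitals mark the core letters of the HIF response element, ACGTG or GCGTG, found on either strand, and the E-box CACGTG, which contains ACGTG and is bound by MYC, USF and carbohydrate response factors. The windows are chr1:42958869-42959118 on the minus strand, chr12:6914330-6914579 on the plus strand, chr21:44299803-44300052 on the plus strand, chr17:28576896-28577145 on the minus strand and chr3:48556804-48557053 on the minus strand.
SLC2A1: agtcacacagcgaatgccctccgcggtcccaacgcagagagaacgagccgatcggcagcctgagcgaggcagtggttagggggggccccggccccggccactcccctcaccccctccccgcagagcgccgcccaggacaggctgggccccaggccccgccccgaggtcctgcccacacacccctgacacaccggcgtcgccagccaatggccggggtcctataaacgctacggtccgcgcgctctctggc
ENO2: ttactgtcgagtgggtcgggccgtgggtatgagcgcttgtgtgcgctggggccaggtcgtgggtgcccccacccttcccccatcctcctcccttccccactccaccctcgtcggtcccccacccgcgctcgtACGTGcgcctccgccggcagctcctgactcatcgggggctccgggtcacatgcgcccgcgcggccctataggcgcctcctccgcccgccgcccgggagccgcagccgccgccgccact
PFKL: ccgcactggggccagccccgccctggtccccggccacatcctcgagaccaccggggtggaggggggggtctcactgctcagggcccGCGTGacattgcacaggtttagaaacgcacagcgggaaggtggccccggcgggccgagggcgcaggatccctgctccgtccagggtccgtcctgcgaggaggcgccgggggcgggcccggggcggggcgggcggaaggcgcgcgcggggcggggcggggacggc
ALDOC: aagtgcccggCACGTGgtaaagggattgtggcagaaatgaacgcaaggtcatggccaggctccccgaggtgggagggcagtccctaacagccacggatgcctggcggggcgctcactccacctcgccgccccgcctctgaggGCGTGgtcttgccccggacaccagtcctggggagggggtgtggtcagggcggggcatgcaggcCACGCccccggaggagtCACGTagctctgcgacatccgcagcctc
PFKFB4: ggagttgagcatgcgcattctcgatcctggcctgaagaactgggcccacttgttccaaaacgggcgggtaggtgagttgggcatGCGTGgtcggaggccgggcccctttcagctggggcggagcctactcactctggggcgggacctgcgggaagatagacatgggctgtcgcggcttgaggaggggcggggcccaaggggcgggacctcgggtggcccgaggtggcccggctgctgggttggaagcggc
The SLC2A1 window holds none of these letters, ENO2, PFKL and PFKFB4 hold 1 match each, and ALDOC holds 5 over both strands, 3 of ACGTG and 2 of GCGTG. The E-box reads the same on both strands, so 2 of the ACGTG matches of ALDOC lie in its 1 E-box. Of all 35116 windows of this length, 18.51% hold ACGTG, 32.22% GCGTG, 43.21% either and 6.345% CACGTG. Windows were given for 35 members and 64 starts, of which 28 members and 36 starts hold ACGTG or GCGTG. The shares over all windows are per start and stand beside the count of starts. A member with several starts counts if any of them matches, so the count of members has no like share. PCK1, PFKFB2, SLC16A1, VEGFA and SLC2A3 had no window, and the window of NDRG1 is not shown. A match describes the letters and is not evidence of a bound factor.

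Compound 4 was followed by a higher level of 5 members and a lower level of 2. The glucose carrier SLC2A1 and the enolase ENO2 rose, the low hexokinase HK1 and the low phosphofructokinase PFKP rose, the HIF subunit HIF1A rose, and the phosphofructokinase PFKL and the aldolase ALDOC fell. Over all genes tested, 5.6% passed as higher and 3.91% as lower, and of the 39 members 12.8% and 5.13% did, so that the share of lower members was near that of all genes. Compound 5 was followed by a rise of SLC2A1 and HIF1A and a fall of PFKL, ALDOC, the pyruvate kinase PKLR and PFKFB4, or 5.13% higher and 10.3% lower of the 39, where 5.35% of all genes were higher and 2.95% lower, so that the share of higher members was near that of all genes. Under compound 6 no member passed, and of all genes 0.493% were higher and 0.0821% lower. At an unadjusted p below 0.05, 18 of the 39 members under compound 4, 12 under compound 5 and 19 under compound 6 passed. Of the 13400 genes tested, 3688, 3811 and 2490 did. With 2 libraries a group, full separation from the controls was common. Both libraries lay above both controls for 30.4%, 31.0% and 29.3% of all genes tested under compounds 4, 5 and 6. Both lay below them for 28.0%, 28.5% and 26.0%. Of the 39 members, 28.2%, 17.9% and 20.5% lay above and 30.8%, 41.0% and 46.2% below. The 3 comparisons share the DMSO libraries. Nothing in the labels says that the libraries came from separate cultures, so the p-values measure only the spread between these samples. Unless another setting is named, calls and adjusted p-values are those of the edgeR quasi-likelihood test with Benjamini-Hochberg adjustment, a filter on low counts and no block.

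**Figure D1:**
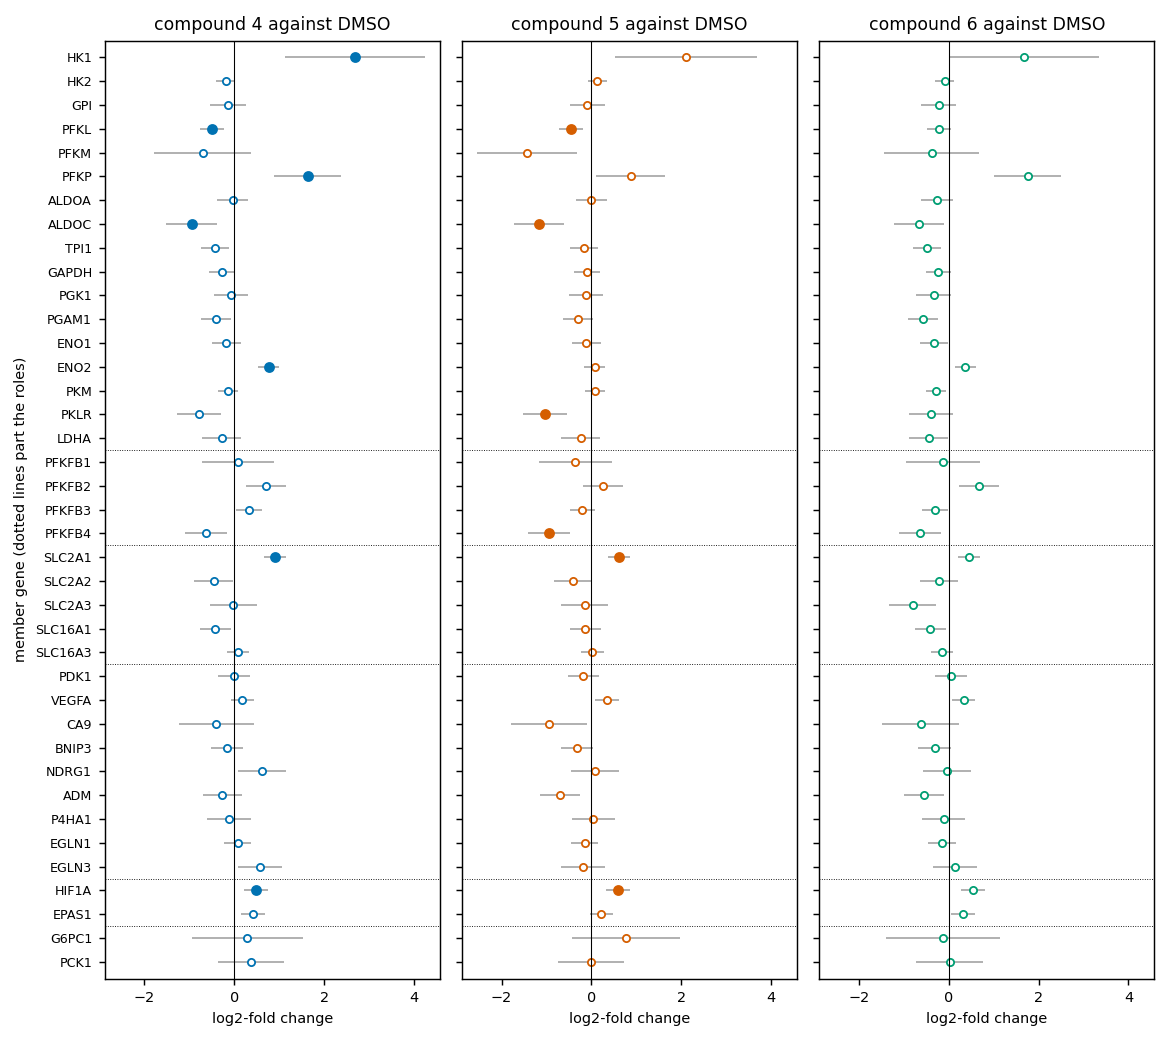
Log2-fold change of each of the 39 tested members (rows, grouped by role) against DMSO for compounds 4, 5 and 6 (panels), with bars for the 95% interval from the edgeR fit of 8 libraries. Filled points passed an adjusted p of 0.05: 7 under compound 4, 6 under compound 5 and 0 under compound 6.

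Glucose entry showed the change with the smallest adjusted p. SLC2A1 (GLUT1, ENSG00000117394, chromosome 1, 42925375 to 42959176, GRCh38) is the basal glucose carrier of most tumour cells. Its level was 1465 and 1331 CPM under DMSO, 2549 and 2718 under compound 4, 2223 and 2066 under compound 5, and 1774 and 2075 under compound 6. All 6 treated libraries lay above both controls, and the compound 4 libraries were the highest. The log2-fold change was 0.91 (SE 0.11, adjusted p = 0.00361) for compound 4 and 0.62 (SE 0.11, adjusted p = 0.0137) for compound 5. For compound 6 it was 0.46 (SE 0.11, adjusted p = 0.0794), which did not pass. The difference between compounds 4 and 6 was 0.45 (95% interval 0.21 to 0.70) with an adjusted p of 0.341, and that between compounds 4 and 5 was 0.30 (0.05 to 0.54) with an adjusted p of 0.235.

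The other carriers did not pass. SLC2A3 (GLUT3), a high-affinity glucose carrier, was at 601 and 445 CPM under DMSO, 602 and 426 under compound 4, 527 and 415 under compound 5, and 362 and 239 under compound 6. Both compound 6 libraries lay below both controls, with a log2-fold change of −0.80 (SE 0.24, adjusted p = 0.129). With the replicate number as a block it was −0.81 with an adjusted p of 0.0229, the 1 member that passed for compound 6 in that fit, where 0.507% of all genes passed. Against compound 5 the blocked difference was −0.67 (adjusted p = 0.0132, 2.01% of all genes). The liver carrier SLC2A2 (GLUT2) changed by −0.46 on the log2 scale under compound 4 and by −0.41 under compound 5, which did not pass without the block (adjusted p = 0.152 and 0.189) but did with it (0.0212 and 0.0378). The lactate carrier SLC16A1 (MCT1) had −0.42 under compound 4, with a blocked adjusted p of 0.03, while SLC16A3 (MCT4), the exporter typical of glycolytic cells, lay between −0.15 and 0.09 for the 3 compounds. Per kilobase of transcript, SLC2A1 made up 67.6% and 71.4% of the summed CPM of the 3 glucose carriers under DMSO. Its share was 79.2% and 85.0% under compound 4, 78.8% and 81.3% under compound 5, and 79.2% and 86.8% under compound 6, above the controls in all 6 libraries.

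The enzymes that carry most of the pathway's RNA did not pass in any comparison. Per kilobase, GAPDH, ENO1, ALDOA, LDHA, PKM and TPI1 were the highest enzymes under DMSO, with means of 1482, 1417, 1239, 865, 707 and 431 CPM per kb. In this order the DMSO libraries of GAPDH overlapped those of ENO1, and those of ENO1 overlapped those of ALDOA, while the lower ones were apart. For the dehydrogenase GAPDH the log2-fold changes were −0.28, −0.10 and −0.23 in the order of compounds 4, 5 and 6, and for ENO1, the main enolase, −0.18, −0.11 and −0.32. Lactate dehydrogenase A (LDHA) had −0.28, −0.24 and −0.45, and the tumour pyruvate kinase PKM −0.14, 0.08 and −0.27. The triosephosphate isomerase TPI1 was at 766 and 754 CPM under DMSO and between 491 and 733 CPM in the 6 treated libraries, all of them lower, with −0.43, −0.17 and −0.48 (adjusted p = 0.0821, 0.45 and 0.119). The phosphoglycerate mutase PGAM1 had −0.41, −0.31 and −0.57 (adjusted p = 0.112, 0.202 and 0.104). Glycolytic enzymes together took 1.52% to 1.64% of the counts under DMSO and 1.18% to 1.53% under the compounds, and the compound 4 library with the highest share overlapped the controls. The median log2-fold change of the 17 tested enzymes was −0.19, −0.11 and −0.27 for compounds 4, 5 and 6, where the median over all genes was 0.01, 0.00 and 0.02. Of the 17, 14, 12 and 14 had a negative value, as did 6518, 6650 and 6332 of the 13400 genes tested. Libraries of the same group differed too. With 0.5 added to the CPM before logs, the median of replicate 2 minus replicate 1 was −0.19 under DMSO. It was −0.38, −0.001 and −0.15 under compounds 4, 5 and 6. The first compound 4 library, at a median of −0.062 from the DMSO mean, lay between the DMSO libraries (0.095 and −0.095).

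The glycolytic enzymes that passed were minor isozymes of their step, with the exception of PFKL, which is the main one. Enolase 2 (ENO2, ENSG00000111674, chromosome 12, 6913745 to 6923698), known from neurons and many tumours, was at 64.3 and 65.2 CPM under DMSO, 114 and 106 under compound 4, 64.5 and 71.2 under compound 5, and 81.9 and 85.1 under compound 6. Compound 4 gave the highest values and compound 6 intermediate ones, while the compound 5 libraries overlapped the controls. On the log2 scale the change was 0.76 (SE 0.10, adjusted p = 0.00496) for compound 4, 0.07 (SE 0.10, adjusted p = 0.695) for compound 5 and 0.37 (SE 0.11, adjusted p = 0.12) for compound 6. ENO2 was also the 1 member that differed between compounds, higher under compound 4 than under compound 5 by 0.70 (SE 0.10, adjusted p = 0.0332), a comparison in which 0.313% of all genes passed. Per kilobase, ENO2 was 1.46% and 1.74% of the enolase RNA under DMSO and 2.74% and 3.37% under compound 4, so the main enolase ENO1 remained in large excess.

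Hexokinase 1 (HK1, ENSG00000156515, chromosome 10, 69269984 to 69401884) traps glucose in most tissues, but is low in these cells. It was at 1.54 and 0.17 CPM under DMSO (15 and 2 counts), 5.54 and 4.94 under compound 4, 5.10 and 2.05 under compound 5, and 3.24 and 1.99 under compound 6. All treated libraries were above the controls, which differed widely from each other. The log2-fold change was 2.69 (SE 0.69, adjusted p = 0.04) for compound 4, 2.11 (SE 0.71, adjusted p = 0.0918) for compound 5 and 1.69 (SE 0.74, adjusted p = 0.263) for compound 6, and it passed for compound 5 with the replicate block (2.13, adjusted p = 0.0468). HK2, the main hexokinase at 339 and 326 CPM under DMSO, had −0.19, 0.13 and −0.09, and it made up 97.4% to 99.9% of the RNA of the pair per kilobase in every library.

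Phosphofructokinase commits sugar to glycolysis. The liver form PFKL (ENSG00000141959, chromosome 21, 44300051 to 44327376) was at 137 and 130 CPM under DMSO, 101 and 88.8 under compound 4, 89.2 and 105 under compound 5, and 119 and 112 under compound 6. Every treated library was below both controls, the compound 6 libraries least so. Against DMSO the log2-fold change was −0.50 (SE 0.12, adjusted p = 0.0307) for compound 4, −0.46 (SE 0.12, adjusted p = 0.045) for compound 5 and −0.21 (SE 0.12, adjusted p = 0.377) for compound 6. The platelet form PFKP (ENSG00000067057, chromosome 10, 3066333 to 3137712) moved the other way, at 5.43 and 3.35 CPM under DMSO, 9.95 and 16.9 under compound 4, 9.63 and 6.43 under compound 5, and 13.1 and 16.3 under compound 6. All treated libraries were above both controls. This was a log2-fold change of 1.63 (SE 0.33, adjusted p = 0.0183) for compound 4, 0.87 (SE 0.34, adjusted p = 0.13) for compound 5 and 1.76 (SE 0.33, adjusted p = 0.0541) for compound 6. PFKP thus made up 3.97% and 2.60% of the phosphofructokinase RNA per kilobase under DMSO, 9.37% and 16.5% under compound 4, 10.1% and 6.00% under compound 5, and 10.3% and 13.1% under compound 6. The muscle form PFKM stayed at or below 1.67 CPM and overlaps the antisense gene SENP1, whose mean count is 1480% of its own.

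Aldolase C (ALDOC, ENSG00000109107, chromosome 17, 28573115 to 28577264), the form known from brain, fell under compounds 4 and 5. It was at 106 and 86.3 CPM under DMSO, 61.3 and 38.6 under compound 4, 34.6 and 51.0 under compound 5, and 70.5 and 52.1 under compound 6, so that no treated library reached the controls. Its log2-fold change was −0.95 (SE 0.25, adjusted p = 0.0431), −1.16 (SE 0.25, adjusted p = 0.0248) and −0.65 (SE 0.25, adjusted p = 0.201), respectively. ALDOA, the main aldolase, had −0.04, −0.00 and −0.26, and a same-strand gene that overlaps it has 8.81% of its mean count. Per kilobase, ALDOC was 3.64% and 3.89% of the RNA of the pair under DMSO and 1.35% to 3.13% in the treated libraries, all of them lower. Pyruvate kinase L/R (PKLR, ENSG00000143627, chromosome 1, 155289293 to 155301438), the liver form, was at 18.7 and 16.0 CPM under DMSO, 10.3 and 9.73 under compound 4, 6.67 and 10.1 under compound 5, and 14.9 and 11.3 under compound 6. All treated libraries were lower, with the compound 6 libraries nearest to the controls. The corresponding log2-fold change was −0.79 (SE 0.22, adjusted p = 0.054), −1.03 (SE 0.22, adjusted p = 0.0244) and −0.40 (SE 0.22, adjusted p = 0.358). The antisense gene HCN3 overlaps PKLR with 70.4% of its mean count.

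**Figure D2:**
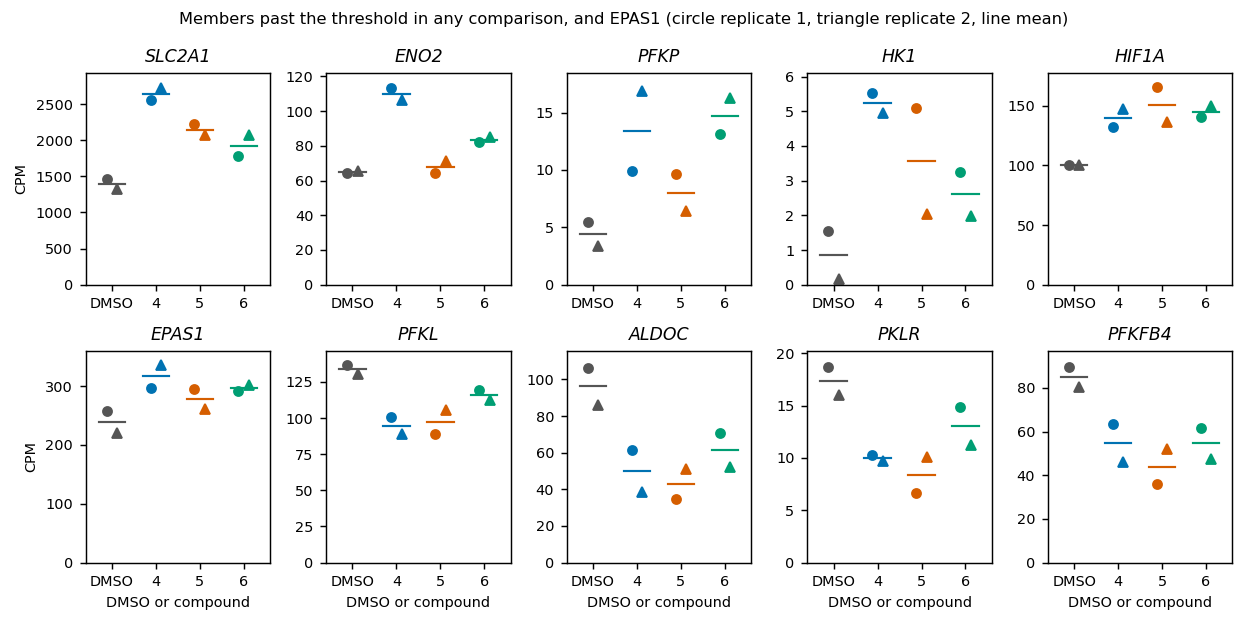
CPM in each library (y axis from 0, 1 panel per gene) under DMSO and compounds 4, 5 and 6, with a circle for replicate 1, a triangle for replicate 2 and a line for the mean. SLC2A1, PFKP, HK1, HIF1A and EPAS1 were above both controls in all 6 treated libraries, and PFKL, ALDOC, PKLR and PFKFB4 below them. For a single compound, 29.3% to 31.0% of all genes tested lay above both controls and 26.0% to 28.5% below them.

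The PFKFB enzymes make or remove the activator of phosphofructokinase. PFKFB4 (ENSG00000114268, chromosome 3, 48517684 to 48562015), a HIF-inducible form, was at 89.6 and 80.6 CPM under DMSO, 63.4 and 46.2 under compound 4, 35.8 and 52.0 under compound 5, and 61.6 and 47.5 under compound 6. Every treated library was below both controls. The log2-fold change was −0.64 (SE 0.21, adjusted p = 0.084) for compound 4, −0.95 (SE 0.21, adjusted p = 0.0271) for compound 5 and −0.64 (SE 0.21, adjusted p = 0.152) for compound 6. PFKFB2, at 17.5 and 13.3 CPM under DMSO, had 0.71 (adjusted p = 0.0514) under compound 4, 0.26 under compound 5 and 0.67 (adjusted p = 0.13) under compound 6, with both libraries of compounds 4 and 6 above the controls. PFKFB3, also known as hypoxia-inducible, had 0.33, −0.20 and −0.30, and the low PFKFB1 0.08, −0.36 and −0.12, none of which passed. PFKFB4 made up 69.1% and 66.9% of the RNA of the 4 genes per kilobase under DMSO, and 47.8% to 61.7% in the treated libraries.

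**Figure D3:**
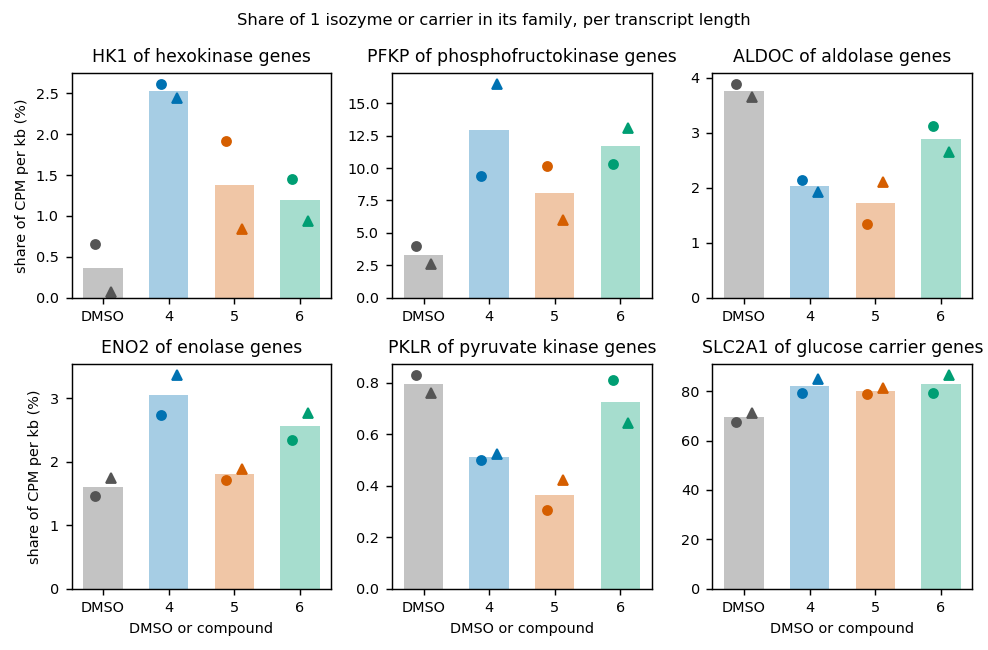
Share of 1 gene in the summed CPM per kilobase of its family (y axis in %, from 0), in each library (circle replicate 1, triangle replicate 2) with the group mean as a bar. In every treated library PFKP, SLC2A1 and the low HK1 took a larger share than under DMSO, where PFKP had 2.60% and 3.97%, and ALDOC a smaller one. The share of ENO2 was larger in both libraries of compounds 4 and 6, and that of PKLR smaller in both libraries of compounds 4 and 5.

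Both HIF subunits were higher in every treated library. HIF1A (ENSG00000100644, chromosome 14, 61695513 to 61748259) was at 100 and 100 CPM under DMSO, 132 and 147 under compound 4, 166 and 136 under compound 5, and 140 and 150 under compound 6. The 2 controls were nearly equal, and no treated library overlapped them. The log2-fold change was 0.48 (SE 0.12, adjusted p = 0.0377), 0.59 (SE 0.12, adjusted p = 0.0216) and 0.53 (SE 0.12, adjusted p = 0.0727), respectively. EPAS1 (HIF-2α) was at 257 and 219 CPM under DMSO, 297 and 337 under compound 4, 295 and 261 under compound 5, and 292 and 301 under compound 6. The lower compound 5 library was only just above the higher control. Its log2-fold change was 0.41 (SE 0.12, adjusted p = 0.0589), 0.22 (SE 0.12, adjusted p = 0.244) and 0.32 (SE 0.12, adjusted p = 0.197), and it passed for compound 4 with the replicate block (0.41, adjusted p = 0.0487).

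Of the 9 HIF targets outside glycolysis, 0 passed for any compound by edgeR or DESeq2. For compounds 4, 5 and 6, 2, 3 and 2 of them had an unadjusted p below 0.05. Among all 13400 genes tested, 1275, 1112 and 77 passed by edgeR, and 3688, 3811 and 2490 had such an unadjusted p. Many of the glycolytic genes and carriers described above are known HIF targets too, some that rose, such as SLC2A1, and some that fell, such as PFKFB4. Of the 17 tested glycolytic enzymes, 5, 3 and 0 passed for compounds 4, 5 and 6, and 14, 12 and 14 had a negative value. The median of the 9 was −0.01, −0.18 and −0.11, beside 0.01, 0.00 and 0.02 over all genes. With single libraries left out, the median for compound 4 ran from −0.199 to 0.115 and was above 0 when DMSO replicate 1 (0.0887) or the second compound 4 library (0.115) was missing. The median for compound 6 ran from −0.296 to 0.0880 and was above 0 when DMSO replicate 1 (0.0880) or the second compound 6 library (0.0493) was missing, and that for compound 5 stayed between −0.284 and −0.0736. Carbonic anhydrase 9 (CA9), widely used as a marker of hypoxia, was at 48.7 and 32.2 CPM under DMSO, 42.2 and 19.5 under compound 4, 22.6 and 19.6 under compound 5, and 34.7 and 17.6 under compound 6. Only the compound 5 libraries lay below both controls, with a log2-fold change of −0.94 (SE 0.38, adjusted p = 0.141, and 0.0344 with the replicate block). The stress-response gene NDRG1 had 0.62 (SE 0.24, adjusted p = 0.132) and the prolyl hydroxylase EGLN3 0.57 (SE 0.22, adjusted p = 0.123) under compound 4, both of which passed with the block (adjusted p = 0.00962 and 0.0208). EGLN3 overlaps SPTSSA on the same strand, whose mean count over the whole gene is 263% of its own. The angiogenic factor VEGFA had 0.18, 0.35 and 0.33, and the vasodilator peptide gene ADM −0.26, −0.70 and −0.54, with adjusted p-values of 0.425, 0.056 and 0.19. The pyruvate dehydrogenase kinase PDK1, the mitophagy receptor BNIP3, the collagen hydroxylase P4HA1 and EGLN1 lay between −0.32 and 0.08 for the 3 compounds.

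Glucose production from smaller molecules is typical of hepatocytes. Glucose-6-phosphatase (G6PC1) was at 9.53 and 4.02 CPM under DMSO, 11.4 and 5.09 under compound 4, 14.3 and 8.65 under compound 5, and 9.03 and 3.22 under compound 6, so that the libraries of each compound overlapped the controls. Its log2-fold change was 0.29, 0.77 and −0.13 with SEs of 0.53 to 0.57, and under compound 5 it passed with the block (0.84, adjusted p = 0.0436). The carboxykinase PCK1 was at 69.8 and 41.3 CPM under DMSO and between 43.9 and 92.8 under the compounds, with 0.37, −0.01 and 0.03. Fructose-bisphosphatase 1 (FBP1) had 8 counts in each DMSO library and 2 to 5 in the treated ones and was not tested. Lactate dehydrogenase B (LDHB), not tested either, had 2 counts in 1 compound 4 library and 0 in the other 7.

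The 2 gluconeogenic enzymes shared a feature with many other members, a lower level in replicate 2 than in replicate 1 of the same group. G6PC1 was lower by 0.70 to 1.36 and PCK1 by 0.41 to 0.87 on the log2(CPM + 0.5) scale in each of the 4 groups (0.5 was added to the CPM before taking logs), and for PCK1 this was more than its change under any compound. Of the 39 members, 18 (46.2%) were lower in replicate 2 in all 4 groups, compared to 9.84% of all genes tested. Among them were 4 of the 5 carriers (all but SLC2A1), 5 of the 9 HIF targets and 7 of the 17 glycolytic enzymes, and 0 of the HIF factors and PFKFB enzymes. The share of counts on the 13 mitochondrially encoded protein genes, 3.09% to 5.80%, was also lower in replicate 2 of every group, and its part in this pattern was not tested. The labels call the replicates day 1 and day 2, and the source of the difference was not tested. The column names of DMSO replicate 1 and compound 4 replicate 1 hold the word merged and those of the other libraries do not. The part of this was not tested either.

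**Figure D4:**
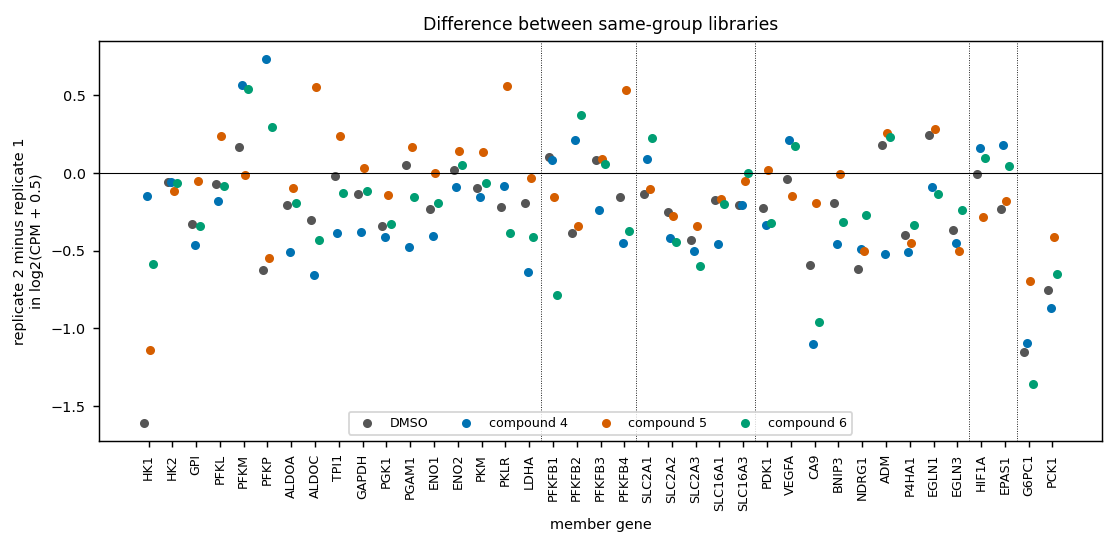
Replicate 2 minus replicate 1 in log2(CPM + 0.5) for the 39 tested members (x axis, dotted lines part the roles), with 1 point for each of the 4 groups. Most points are below 0, and the 4 points of G6PC1 lie between −0.70 and −1.36.

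**Figure D5:**
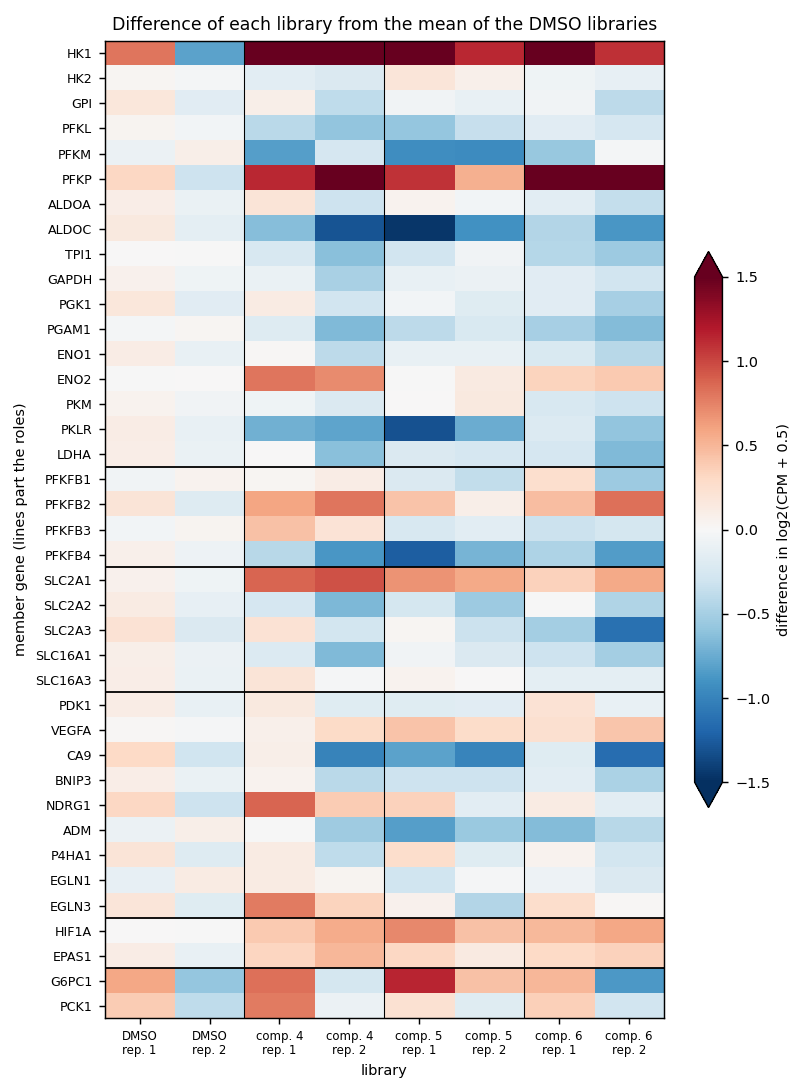
Difference of each library (columns) from the DMSO mean in log2(CPM + 0.5) for the 39 tested members (rows, lines part the roles), with colours ending at −1.5 and 1.5. SLC2A1, PFKP, HIF1A and EPAS1 are red in all 6 treated columns, and PFKL, ALDOC, PKLR and PFKFB4 blue.

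Fitting the replicate number as a block raised the members that passed for compound 4 from 7 to 12 (12.7% of all genes), with NDRG1, EGLN3 and EPAS1 added as higher and SLC2A2 and SLC16A1 as lower. For compound 5 they went from 6 to 10 (10.7% of all genes), with HK1 and G6PC1 added as higher and SLC2A2 and CA9 as lower. Between compounds 4 and 5 they went from 1 to 2 (0.955% of all genes), with EGLN3 added at a difference of 0.75 (adjusted p = 0.0343).

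Most calls were lost when 1 library was left out. Without DMSO replicate 2, 0 members passed for compound 4 or 5, with 43 and 46 genes left in all, and under compound 4 SLC2A1 then had an adjusted p of 0.0554 (log2-fold change 0.85) and ENO2 one of 0.0762 (0.78). These 2 calls passed in the other 13 of 14 alternatives run. Under compound 4, PFKP was lost without DMSO replicate 2 (1.31, adjusted p = 0.173) or compound 4 replicate 2 (adjusted p = 0.132). PFKL and ALDOC were lost without either DMSO library, compound 4 replicate 2 or either compound 6 library, with adjusted p-values up to 0.18 and 0.239. HIF1A was lost without any single DMSO, compound 4 or compound 6 library (adjusted p up to 0.229). HK1 was lost without DMSO replicate 2, where it was 1.76, and without any single compound 4 or compound 6 library (adjusted p up to 0.229), and was 4.88 without DMSO replicate 1. Under compound 5, SLC2A1, HIF1A, ALDOC, PKLR and PFKFB4 were lost without DMSO replicate 1, DMSO replicate 2 or compound 5 replicate 1, with adjusted p-values up to 0.129, 0.152, 0.167, 0.134 and 0.167. PFKL was lost there too and without either compound 6 library (up to 0.235). The difference of ENO2 between compounds 4 and 5 was lost without any 1 library, with adjusted p-values of 0.0766 to 0.188. In every alternative run the direction of these 14 calls was the same.

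For compound 6, the count of 0 depended on the fit. With only the 4 libraries of compound 6 and DMSO, 9 members passed (7.87% of all genes): PFKP, SLC2A1 and HIF1A were higher, and ALDOC, TPI1, PGAM1, PFKFB4, SLC2A3 and SLC16A1 lower. DESeq2 called 6 (3.91% of its genes), with PFKP, SLC2A1 and HIF1A higher and TPI1, PGAM1 and PFKFB4 lower. The log2-fold changes of these members in the fit of 8 libraries ranged from −0.80 for SLC2A3 to 1.76 for PFKP.

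Between the compounds, whose doses differ, 3 pairs were compared, each adjusted over all genes. For compounds 4 and 6, which differ in tert-butyl against cyclohexyl groups, 0 members and 0% of all genes passed. An unadjusted p below 0.05 was found for 6 members, beside 945 of the 13400 genes tested, and DESeq2 called SLC2A1. The interval of the difference was inside a 2-fold change in either direction for 31 of the 39 members. NDRG1 (0.66, 95% interval 0.13 to 1.19) and PFKFB3 (0.63, 0.35 to 0.92) were among those higher in both compound 4 libraries than in both compound 6 libraries. For compounds 6 and 5, 0 members passed where 1.03% of all genes did. Of the members, 7 had an unadjusted p below 0.05, beside 2483 of all genes tested. DESeq2 called PKM, and the interval was inside a 2-fold change for 30 members. PKM was lower under compound 6 than under compound 5 by −0.35 (95% interval −0.58 to −0.13, adjusted p = 0.115), and PFKP higher by 0.89 (0.21 to 1.57, adjusted p = 0.172). HIF1A differed little between the compounds, with −0.06 (−0.32 to 0.21) for 4 against 6, −0.11 (−0.38 to 0.16) for 4 against 5 and −0.05 (−0.32 to 0.21) for 6 against 5.

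Beyond the members, 6 wider lists of 128 genes around the same pathways, 102 of them tested, had 7 higher and 6 lower under compound 4, 9 higher and 12 lower under compound 5, and 2 higher and 0 lower under compound 6. These were 6.86% and 5.88% of the 102 for compound 4, 8.82% and 11.8% for compound 5, and 1.96% higher for compound 6. The shares over all genes tested were 5.6% higher and 3.91% lower, 5.35% and 2.95%, and 0.493% and 0.0821%, in the same order, so that the shares for compound 4 were near those of all genes. Among 23 further genes of glycolysis and pyruvate, 1 was higher and 1 lower under compound 4 (4.35% each, beside 5.6% and 3.91% of all genes) and 2 higher and 3 lower under compound 5 (beside 5.35% and 2.95%). Under compound 6, 0 passed by edgeR, 7 had an unadjusted p below 0.05 (2490 of all 13400 genes did) and DESeq2 called GCKR and HKDC1. The phosphatase MINPP1 fell by 1.14 and the hexokinase-like HKDC1 rose by 0.85 under compound 5 (adjusted p = 0.00597 and 0.0351), and GCKR, the regulator of glucokinase, rose by 0.92 under compound 4 (adjusted p = 0.0353). DESeq2 called HKDC1 for compound 4 too. Of 20 genes of gluconeogenesis and glycogen, 3 were higher and 3 lower under compound 4 (15.0% each, beside 5.6% and 3.91% of all genes), 3 higher and 4 lower under compound 5 (15.0% and 20.0%, beside 5.35% and 2.95%), and 1 higher, the mitochondrial carboxykinase PCK2 at 0.75 (adjusted p = 0.0463), under compound 6. The glucose-6-phosphate translocase SLC37A4 was at 48.6 and 57.6 CPM under DMSO, 31.0 and 25.7 under compound 4, 21.1 and 30.8 under compound 5, and 37.1 and 33.7 under compound 6, below the controls in every treated library. On the log2 scale it fell by 0.91 with compound 4 (adjusted p = 0.0189) and by 1.03 with compound 5 (adjusted p = 0.0147). PPP1R3C, which targets a phosphatase to glycogen, fell by 1.08 and 1.29 with compounds 4 and 5 (adjusted p = 0.0386 and 0.0238), and DESeq2 called it for compound 5 only. The coactivator PPARGC1A rose by 0.89 under compound 5 (adjusted p = 0.0222). DESeq2 called PPARGC1A and PCK2 for compound 4 too.

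In the HIF system itself (partners, hydroxylases and the degradation complex), 0 of 15 tested genes passed for any of the 3 compounds by edgeR or by DESeq2. For compounds 4, 5 and 6, 2, 4 and 1 of the 15 had an unadjusted p below 0.05. Over all 13400 genes tested, 3688, 3811 and 2490 did. Among 27 other HIF targets, 1 was higher and 1 lower under each of compounds 4 and 5 (3.70% each). These shares were near those of all genes, 5.6% higher and 3.91% lower for compound 4 and 5.35% and 2.95% for compound 5. Under compound 6, 1 was higher and 0 lower (3.70% and 0%, beside 0.493% and 0.0821%). The hormone gene EPO fell by 1.23 and 1.02 with compounds 4 and 5 (adjusted p = 0.0275 and 0.0498), and DESeq2 called it for compound 4 only. JMJD6 rose by 0.68 under compound 5 (adjusted p = 0.012). Among 9 glucose-sensing genes, 2 were higher and 1 lower under compound 4 (22.2% and 11.1%, beside 5.6% and 3.91% of all genes), 3 higher and 3 lower under compound 5 (33.3% each, beside 5.35% and 2.95%), and 0 under compound 6 by edgeR or DESeq2, where 2 had an unadjusted p below 0.05. ARRDC4, an arrestin-like gene induced by glucose, fell by 0.98 under compound 5 (adjusted p = 0.0272), and under compound 4 the factors KLF10 and USF2 rose by 0.66 and 0.65 (adjusted p = 0.0252 and 0.0118). USF2 was at 92.7 and 89.3 CPM under DMSO and 132 and 128 under compound 5, where DESeq2 called it too. Under compound 6 USF2 was at 105 and 127 CPM. Of 8 further carriers, SLC2A4 was lower under compound 5 (fell by 0.74, adjusted p = 0.0499), a gene that DESeq2 did not call. Under compounds 4 and 6, 0 of the 8 passed by edgeR, 3 and 2 had an unadjusted p below 0.05, and DESeq2 called 0 and 1 (BSG).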

How the data were processed

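RNA from 8 libraries was analysed. The authors checked reads with FastQC 0.12.0 and estimated transcript abundance with Salmon 1.5.0, and deposited gene-level estimated counts without normalization, given as whole numbers. Genome build GRCh38 is named in the submitters' notes. The kit keeps the strand, but whether the counting used it is not given in the sources used here, so the counts of overlapping genes are uncertain. Processed pseudogenes named after a member reached at most 1.52% of its count.

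Testing used edgeR 4.0.16 (R 4.3.3). Library sizes were scaled by TMM, low genes were removed by filterByExpr (minimum count 10), and the quasi-likelihood test was run in 1 fit of 8 libraries, with Benjamini-Hochberg adjustment over 13400 genes and a threshold of 0.05. The scripts were tested on simulated data. CPM was computed after TMM, and 0.5 was added before logs of single libraries. Symbols came from a gene table and positions and lengths (longest coding transcript) from GENCODE. Libraries were grouped by the labels. The members and lists were chosen with earlier results of these data known. Values in every library are given for members past the threshold and the HIF factors, and up to 3 genes with the largest change among those passing are named per wider list, except for a gene that is not reported here. Alternatives were DESeq2 1.42.0, its size factors, the replicate number as a block, fits of 4 libraries, other filters and leaving out libraries. The pairing of replicates comes from the day in the labels. Across genes, the differences between replicates 2 and 1 had correlations of −0.16 to 0.30 over the 6 pairs of groups. Figures were made with matplotlib.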

Additional observations from a re-analysis of the deposited data

How the results depend on the processing

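Every change of the 9 members that passed kept its direction, and of 195 values recomputed under alternatives 140 stayed past the threshold and 55 did not. The cause of the differences between settings was not tested, except that leaving out a library leaves fewer samples and that a fit of 4 libraries has fewer samples than one of 8. The number of members past the threshold for compound 4 (7) was 11 with DESeq2, 12 with the replicate block and 17 without a filter on low counts, and 0 to 11 when single libraries were left out. For compound 5 (6) it was 10 with the replicate block and 12 without a filter, and 0 to 7 when single libraries were left out. For compound 6 (0) it was 6 with DESeq2, 1 with the replicate block, 9 with only the 4 libraries compared, 16 without a filter and 1 with 10 counts required in every library, and 0 to 2 when libraries were left out. Between compounds 4 and 6 (0) it was 1 with DESeq2 and 4 without a filter. Between compounds 4 and 5 (1) it was 2 with the replicate block, 0 with only the 4 libraries compared, 6 without a filter and 0 without any 1 of the 8 libraries. Between compounds 6 and 5 (0) it was 1 with DESeq2, 1 with the replicate block and 5 without a filter. When libraries were left out, the median of the glycolytic enzymes was −0.403 to −0.0622 for compound 4 and −0.222 to −0.0042 for compound 5, and the median of the HIF targets for compound 6 was −0.296 to 0.0880. Where a group was left with 1 library, that library was assumed to vary like the other groups. At 2 libraries a group, permutation tests cannot pass the threshold and none was run, and HK1, PFKM and G6PC1 are limited by low counts.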
